A study of Homo sapiens with 6 samples.

Results

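The MAP kinase phosphatases are the dual-specificity phosphatase (DUSP) genes whose products switch off MAP kinases. The 10 genes are DUSP1, DUSP2, DUSP4, DUSP5, DUSP6, DUSP7, DUSP8, DUSP9, DUSP10 and DUSP16. Every probe whose annotated gene was one of them was taken; the rule uses no measured value, but the genes were proposed with earlier results of these data known. This gave 12 of the 47225 probes on the array for 10 of 20043 named genes. DUSP4 and DUSP6 had 2 probes each and the other 8 genes 1 each. RNA came from HCT116, an established human colorectal carcinoma line. One group carried a control short hairpin RNA (shCtrl) and the other a hairpin against TCF7L1 (shTCF7L1), a TCF/LEF factor of Wnt signalling, with 3 arrays each described as biological replicates. Which transcripts differ between control and knockdown cells is the question of the series. The number and sequence of the hairpins, and whether cells were pooled or cloned, are not stated in these sources.

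MAP kinases pass growth and stress signals to the nucleus once a kinase has phosphorylated a threonine and a tyrosine in their activation loop. The MAP kinase phosphatases remove both phosphates and so end the signal. Many of their genes are themselves induced by MAP kinase signalling, which closes a negative feedback loop. By location and preferred substrate they form 3 classes. DUSP1, DUSP2, DUSP4 and DUSP5 are inducible nuclear enzymes, DUSP6, DUSP7 and DUSP9 are cytoplasmic and prefer ERK, and DUSP8, DUSP10 and DUSP16 prefer JNK and p38.

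Between 34.0% and 36.8% of probes were above background per array (detection p below 0.01). Correlation between arrays over 10470 tested genes was 0.971 to 0.975 within groups and 0.942 to 0.948 between them, and shTCF7L1 replicate 3 lay apart from its group on the second principal component. The single TCF7L1 probe gave a log2 difference of -0.53 (SE 0.20, limma adjusted p = 0.0800) and was above background on 2 control arrays and 0 knockdown arrays, so the check of the knockdown rests on a dim probe. Of 11 colon epithelium markers 6 were detected, among them EPCAM, CDH1 and CDX2, while KRT20, CDX1, VIL1, CDH17 and LGALS4 were not. KRT8 fell (log2 -0.82, SE 0.24, limma adjusted p = 0.0305), CDH1 gave -0.53 (adjusted p = 0.0777) without overlap, and the median of the 6 was -0.19. The markers' summed signal was 8049 to 10026 in shCtrl and 7264 to 9838 in shTCF7L1. Of 6 fibroblast markers 1, COL1A1, was detected and rose (log2 1.14, SE 0.28, adjusted p = 0.0116), with a summed signal of 190.0 to 218 against 227 to 345. Of 5 leukocyte markers 1, CD68, was detected, with a summed signal of 182 to 224 against 157 to 229. The part of these shifts in the results below was not tested. By the labels the 6 arrays shared 1 chip and each group sat in its own neighbouring positions; position and group cannot be told apart.

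DUSP8, DUSP5, DUSP4 and DUSP1 rose in shTCF7L1 cells, between 1.58-fold and 3.62-fold. DUSP2, DUSP6 and DUSP16 were detected and did not pass the test, and DUSP7, DUSP9 and DUSP10 were too close to background to be tested. Of the 10 genes 7 passed the detection filter, and 4 of these 7 were called higher and 0 lower at an adjusted p below 0.05. Over all tested genes 15% were called, with 7.85% higher and 7.11% lower. The groups did not overlap in 4 of the 7, against 33.9% of all tested genes. Tests are limma with Benjamini-Hochberg adjustment over all 10470 genes. In these bulk samples a change in every cell and a change in some of the cells cannot be told apart.

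**Figure D1:**
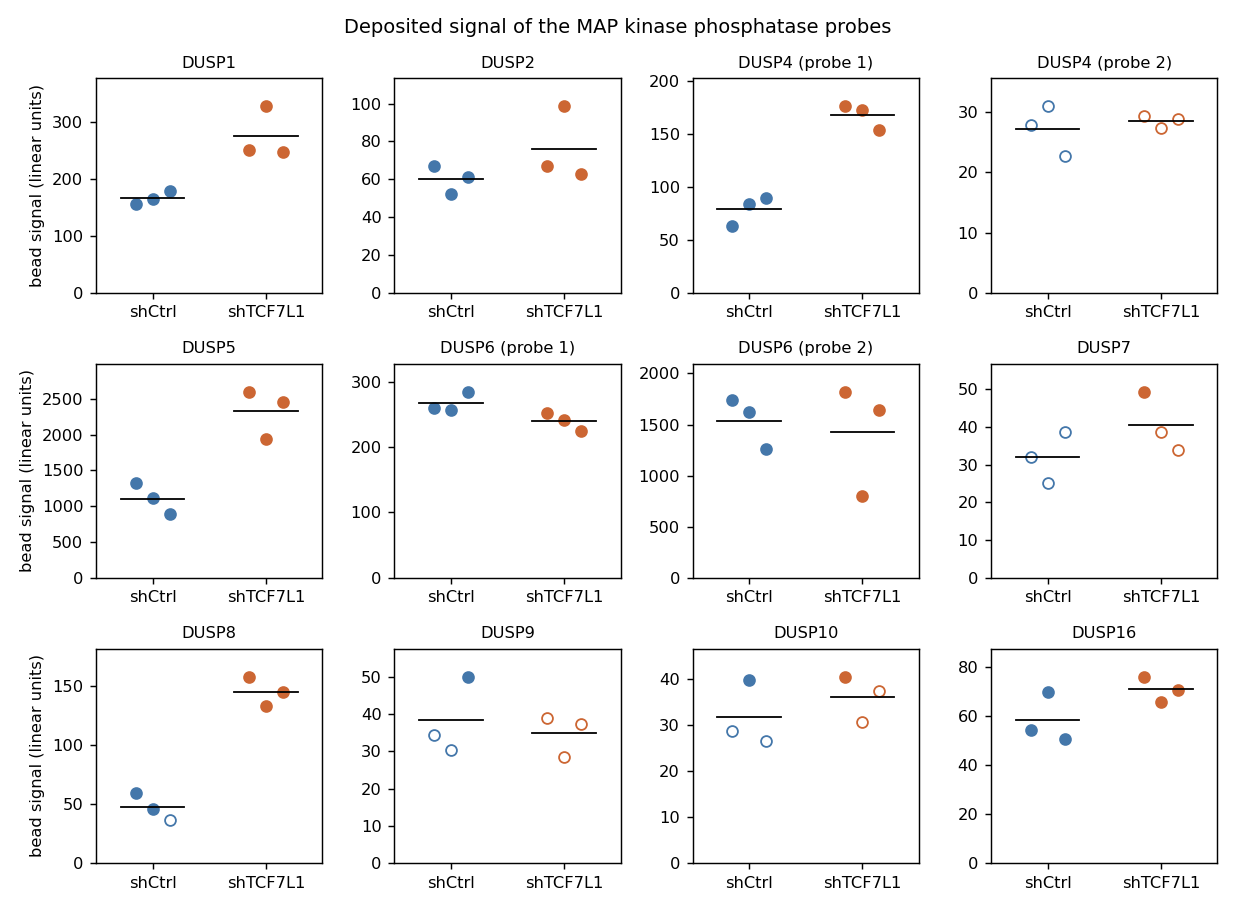
Deposited bead signal (linear units, each axis from 0) of the 12 MAP kinase phosphatase probes in the 3 shCtrl (blue) and 3 shTCF7L1 (orange) arrays. Points are arrays in the order of replicates 1 to 3, filled where the detection p was below 0.01, and lines are group means. In DUSP1, DUSP5, DUSP8 and the detected DUSP4 probe all knockdown points lie above all control points.

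DUSP8 had the largest change of the 7 tested genes. Its enzyme prefers the stress kinases JNK and p38 and is best known from brain and heart. The bead signal was 59.6, 45.5 and 36.8 in shCtrl and 158, 133 and 145 in shTCF7L1. Every knockdown array was above every control array, and the third control array alone was not above background (detection p 0.023). Normalized log2 levels were 5.15 ± 0.44 for shCtrl and 7.01 ± 0.15 for shTCF7L1 (SD, n = 3 each). The rise on the log2 scale was 1.85 (SE 0.23, 95% interval 1.37 to 2.34, limma adjusted p = 0.000119), and its size was above that of 99.7% of tested genes. Because the control signal is dim, the fold depends on how background is treated: the log2 difference was 1.22 with a normexp offset of 50 and 2.75 with the authors' processed values, and it passed in both.

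DUSP5, a nuclear phosphatase specific for ERK and a known transcriptional target of ERK signalling, rose 2.21-fold. Its signal was 1322, 1111 and 886 in shCtrl and 2603, 1944 and 2451 in shTCF7L1. The groups were well apart, and the lowest knockdown array, replicate 2, still exceeded the highest control array. The log2 level went from 10.07 ± 0.26 to 11.21 ± 0.24 (SD, n = 3 each), a difference of 1.14 (SE 0.21, 95% interval 0.69 to 1.59, limma adjusted p = 0.00260). The 2 probes of the pseudogene DUSP5P1, a copy of DUSP5 looked at because of its sequence, stayed between 23.3 and 40.5 units and were above background on 0 arrays.

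DUSP4, a nuclear phosphatase that acts on ERK and JNK, rose 2.20-fold by the probe annotated to transcript NM_001394. That probe read 62.5, 83.8 and 89.5 in shCtrl and 176, 173 and 154 in shTCF7L1. All 3 knockdown arrays were high and close together, while the first control array was the lowest. The log2 level was 6.10 ± 0.38 against 7.23 ± 0.10 (SD, n = 3 each), a difference of 1.14 (SE 0.22, 95% interval 0.67 to 1.60, limma adjusted p = 0.00311). The other DUSP4 probe, annotated to NM_057158, read 22.8 to 31.0 and was above background on 0 of 6 arrays, so it gave no level in either group.

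DUSP1, an immediate early gene whose nuclear enzyme acts on JNK, p38 and ERK, rose 1.58-fold. Its signal was 156, 165 and 178 in shCtrl and 251, 327 and 246 in shTCF7L1, with replicate 2 the highest. The log2 level was 7.32 ± 0.15 against 7.98 ± 0.21 (SD, n = 3 each), a difference of 0.66 (SE 0.20, 95% interval 0.23 to 1.08, limma adjusted p = 0.0372). The groups did not overlap, but the call rested on all 6 arrays. Without any one of them the difference stayed between 0.54 and 0.72 and the limma adjusted p was 0.0543 to 0.131.

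DUSP2, the fourth inducible nuclear member and best known from immune cells, did not pass. Its signal was 67.1, 52.0 and 61.4 in shCtrl and 66.8, 98.5 and 63.0 in shTCF7L1. Replicate 2 of the knockdown was high and the other knockdown arrays lay within the control range. The log2 difference was 0.27 (SE 0.22, 95% interval -0.20 to 0.74, limma adjusted p = 0.446), and it was 0.046 without shTCF7L1 replicate 2 and 0.41 without replicate 3.

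DUSP6, the cytoplasmic ERK phosphatase often used as a readout of ERK signalling, did not pass on either of its probes. The probe annotated to NM_022652 read 1738, 1619 and 1261 in shCtrl and 1823, 804 and 1641 in shTCF7L1. The groups overlapped, with the highest and the lowest of the 6 arrays both in the knockdown. The log2 difference was -0.15 (SE 0.28, 95% interval -0.75 to 0.44, limma adjusted p = 0.761), and 0.25 without shTCF7L1 replicate 2. The probe annotated to NM_001946 read 259.5, 257 and 285 in shCtrl and 253, 242 and 225 in shTCF7L1. On that probe the knockdown arrays lay just below the control arrays, shTCF7L1 replicate 2 was in the middle of its group, and the log2 difference was -0.26 (SE 0.19, limma adjusted p over all kept probes 0.404). For the NM_022652 probe on all 6 arrays the upper bound of the interval, 0.44, lies below the lower bounds for DUSP8, DUSP5 and DUSP4. That bound includes the low shTCF7L1 replicate 2, without which the difference was 0.25.

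Of the other cytoplasmic ERK phosphatases, DUSP7 read 32.0, 25.1 and 38.7 in shCtrl and 49.4, 38.7 and 33.9 in shTCF7L1. It was above background on 1 array, shTCF7L1 replicate 1. DUSP9 read 34.5, 30.4 and 50.1 in shCtrl and 39.0, 28.5 and 37.5 in shTCF7L1, and was above background on shCtrl replicate 3 alone. At these levels no change in either gene was detectable. With the detection filter removed the intervals of the log2 differences were -0.21 to 0.84 for DUSP7 and -0.79 to 0.44 for DUSP9.

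Of the other JNK and p38 phosphatases, DUSP16 did not pass and DUSP10 was not tested. DUSP16 read 54.3, 69.8 and 50.6 in shCtrl and 76.0, 65.8 and 70.6 in shTCF7L1. The groups overlapped through the second control array, and the log2 difference was 0.25 (SE 0.22, 95% interval -0.21 to 0.71, limma adjusted p = 0.473). It was 0.46 without shCtrl replicate 2, and 0.17 and 0.13 without shCtrl replicates 1 and 3. DUSP10 read 28.8, 39.7 and 26.6 in shCtrl and 40.5, 30.6 and 37.4 in shTCF7L1, above background on 1 array of each group. Its interval without a detection filter was -0.36 to 0.61.

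**Figure D2:**
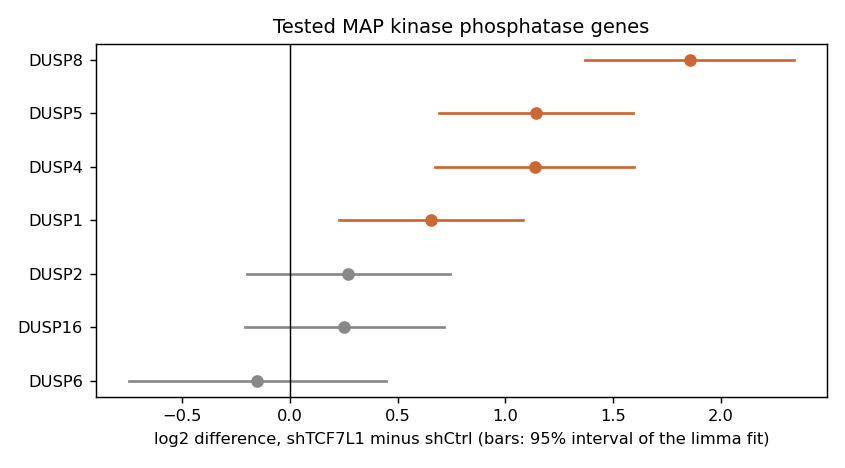
Log2 difference (shTCF7L1 minus shCtrl) of the 7 tested MAP kinase phosphatase genes with the 95% interval of the limma fit on 3 against 3 arrays. Orange marks an adjusted p below 0.05: DUSP8 (1.85), DUSP5 (1.14), DUSP4 (1.14) and DUSP1 (0.66). The intervals of DUSP2, DUSP16 and DUSP6 span 0.

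Whether members changed unequally was looked at within arrays, as the difference between the normalized log2 values of a pair of genes on each array. Of the 21 pairs of tested genes 11 had groups that did not overlap. The share of such pairs over all tested genes was not computed, so the count shows nothing particular to these genes. Each of the 11 had an exact 2-sided permutation p of 0.1, the lowest this design can give. After Benjamini-Hochberg over the 21 pairs it was 0.191, so no pair could pass. The change of DUSP6 minus that of DUSP8 was -2.01, and that of DUSP5 minus DUSP8 was -0.71, both without overlap. The size of the gap between DUSP5 and DUSP8 depends on how background is treated. With a normexp offset of 50 DUSP5 changed by 1.12 and DUSP8 by 1.22, and with the authors' processed values by 1.12 and 2.75. DUSP8 minus DUSP16 was 1.60, with an SD of 0.011 between the knockdown arrays and 0.51 between the control arrays. With the normexp offset of 16 DUSP4 and DUSP5 changed by nearly the same amount (difference -0.0053, exact permutation p = 1). The SD of DUSP4 minus DUSP5 was 0.58 between the control arrays, so this p does not show that the changes were equal. The near match also depends on how background is treated. With a normexp offset of 50 DUSP4 changed by 0.84, less than DUSP5. With the authors' processed values DUSP4 changed more than DUSP5.

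Promoter sequence from the RefSeq table of GRCh38.p14 was used for 8 of the 10 genes, and for DUSP4 and DUSP5 none was used. Each window, 250 bases before to 50 after the annotated start, was searched on both strands for 4 motifs. These were the TCF/LEF core CTTTGA, the AP-1 site TGANTCA, the cyclic AMP response element (CRE) TGACGTNA bound by CREB and ATF factors, and the CArG box of serum response factor. CRE was the one motif found, in DUSP1 and DUSP8, the 2 of these 8 genes that were called higher. DUSP4 and DUSP5, also called higher, were not searched. DUSP7, DUSP9 and DUSP10 are also among the 8 and were not tested, so whether they rose is not known. Of 35116 promoter windows 3.01% held a CRE match. This is a share of windows, not of genes, and a gene can have more than 1 window, as DUSP9 and DUSP10 do. Of the tested genes outside the members with a promoter, 517 held a match and 7979 did not. TCF/LEF core (12.9% of windows), AP-1 (7.71%) and CArG box (1.29%) had 0 matches among the 8 genes. A match of letters shows no binding, and a missing one says only that these letters are not in this window.

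The 250 bases before an annotated start of DUSP1, DUSP8 and DUSP6 are shown 5′ to 3′ on the gene's strand, which is the minus strand for all 3. For DUSP8 this start lies inside the annotated gene, which reaches to chr11:1572848. The DUSP8 bases shown are therefore within the gene's span. DUSP1 and DUSP8 are the called genes whose promoter was searched, and DUSP6 is shown as a detected gene that did not pass. Capitals mark the CRE matches, and the sequences are RefSeq's, build GRCh38.p14.
DUSP1, chr5:172771196-172771445: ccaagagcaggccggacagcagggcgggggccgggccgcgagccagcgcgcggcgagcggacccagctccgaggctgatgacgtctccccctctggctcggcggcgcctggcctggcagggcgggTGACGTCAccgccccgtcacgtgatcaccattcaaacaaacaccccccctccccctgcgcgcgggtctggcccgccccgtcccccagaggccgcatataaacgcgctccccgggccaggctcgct
DUSP8, chr11:1572272-1572521: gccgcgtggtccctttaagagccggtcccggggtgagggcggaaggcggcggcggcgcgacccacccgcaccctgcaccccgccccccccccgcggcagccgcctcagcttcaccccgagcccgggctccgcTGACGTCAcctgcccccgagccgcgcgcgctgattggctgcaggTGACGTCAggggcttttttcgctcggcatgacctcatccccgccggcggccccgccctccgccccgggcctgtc
DUSP6, chr12:89352502-89352751: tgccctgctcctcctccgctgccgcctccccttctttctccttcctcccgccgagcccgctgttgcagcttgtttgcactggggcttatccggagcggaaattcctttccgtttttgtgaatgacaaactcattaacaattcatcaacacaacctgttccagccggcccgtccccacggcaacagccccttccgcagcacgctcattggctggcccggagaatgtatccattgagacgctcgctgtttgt

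DUSP1 held 1 CRE match, 125 to 118 bases before the start. DUSP8 held 2, at 118 to 111 and at 74 to 67 bases before its internal start. All 3 read TGACGTCA, the full palindrome. Across the other tested genes with a promoter in the table, 8.9% of the 517 with a CRE match were called higher and 6.19% lower, with a median log2 difference of 0.055. Of the 7979 without a match 7.29% were called higher and 7.46% lower, with a median of 0.016. GC content of the 250 bases was 74.4% for DUSP1, 76.8% for DUSP8 and 57.2% for DUSP6.

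The MAP kinases, which are the enzymes that these phosphatases act on and their relatives, gave 1 large decrease. Of 13 MAP kinase genes 10 were tested, and 1 fell, 1 rose and 8 stayed short of the threshold. The share called was 20%, near the 15% over all tested genes. The median log2 difference of the 10 was 0.21, against 0.020 over all genes. With the authors' processed values it was 0.47, against 0.13. MAPK3, which encodes the kinase ERK1, fell. Its signal was 579, 472 and 411 in shCtrl and 129, 135 and 153 in shTCF7L1, with all knockdown arrays far below all control arrays. The log2 difference was -1.97 (SE 0.20, 95% interval -2.39 to -1.54, limma adjusted p = 1.86e-05), a 3.91-fold decrease, and the other MAPK3 probe gave -1.35 (limma adjusted p over all kept probes 0.00121). MAPK15, an atypical MAP kinase, rose by 0.78 (SE 0.20, limma adjusted p = 0.0172) from a dim signal of 41.6 to 52.4 in shCtrl to 73.8 to 78.9 in shTCF7L1. That call was lost when shCtrl replicate 1 or shTCF7L1 replicate 3 was left out (adjusted p at most 0.0787). The other 3 were not analysed here.

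**Figure D3:**
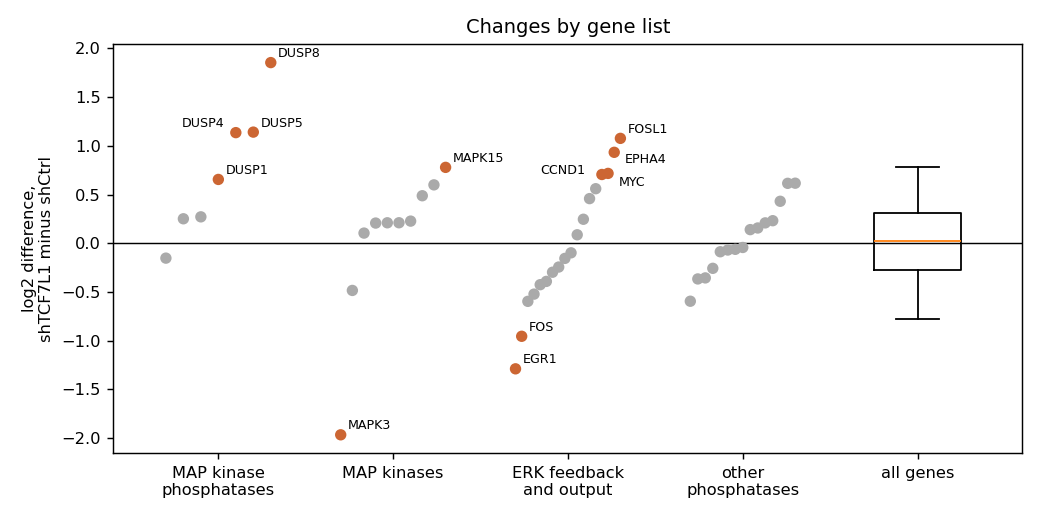
Log2 differences (shTCF7L1 minus shCtrl) of the tested genes of 4 lists, 1 point per gene, ordered by value within a list. Orange points passed the test and are named; the box shows the quartiles of all 10470 tested genes and its whiskers percentiles 5 and 95, at -0.77 and 0.79. DUSP8, DUSP5, DUSP4, FOSL1 and EPHA4 lie above the upper whisker, and MAPK3, EGR1 and FOS below the lower one.

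Other outputs and feedback inhibitors of ERK signalling moved in both directions. Of 20 listed genes 18 were tested, and 4 rose, 2 fell and 12 stayed short of the threshold. The share called was 33.3%, against 15% over all tested genes. The median log2 difference of the 18 was -0.13. PHLDA1 is counted among the 12 by its brighter probe (-0.52). Its other kept probe went the other way, at 0.71 (limma adjusted p over all kept probes 0.0373). FOSL1, an AP-1 subunit kept up by ERK signalling, rose by 1.08 (SE 0.20, limma adjusted p = 0.00292), from 71.7 to 86.3 units in shCtrl to 149 to 199 in shTCF7L1. The Eph receptor EPHA4 rose by 0.93 (SE 0.21), the transcription factor MYC by 0.72 (SE 0.20) and the cyclin CCND1 by 0.71 (SE 0.23). The transcription factor EGR1 fell by 1.29 (SE 0.22, limma adjusted p = 0.00134), from 977 to 1341 units in shCtrl to 409 to 611 in shTCF7L1. FOS fell by 0.95 (SE 0.19, limma adjusted p = 0.00391), from 191 to 207 units to 108 to 123. Sprouty and SPRED genes, feedback inhibitors upstream of ERK, did not pass: the values were 0.56 for SPRY1, 0.25 for SPRY2, -0.39 for SPRY4, -0.42 for SPRED1 and 0.46 for SPRED2. ETV4 (-0.30) and ETV5 (0.087), ETS factors induced by ERK, did not pass either. CCND1 did not pass in 10 of 18 alternatives (adjusted p up to 0.177) and MYC in 5 of 18 (up to 0.0898), among them leaving out single arrays, the other MYC probe gave 0.29, and the remaining 4 calls held in all 18.

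Among related phosphatases no gene passed, against 15% of all tested genes. The list of 22 atypical dual-specificity phosphatases, pseudophosphatases and other MAP kinase phosphatases had 15 tested genes, with 0 called by limma, 3 at an unadjusted p below 0.05 and a median of -0.043. That median has no settled sign, since it was above 0 in 12 of 18 alternatives (-0.062 to 0.14). The smallest p was that of DUSP18, at a log2 difference of 0.62 (SE 0.21, limma adjusted p = 0.0541). Its signal was 61.5, 49.7 and 46.5 in shCtrl and 71.2, 90.7 and 75.1 in shTCF7L1, without overlap. DUSP18 passed with 5 of 18 alternatives (adjusted p 0.0372 to 0.175 over all of them). DUSP3, a small phosphatase that acts on ERK and JNK, gave 0.62 (SE 0.22, adjusted p = 0.0719) and was chosen after its value was seen.

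**Figure D4:**
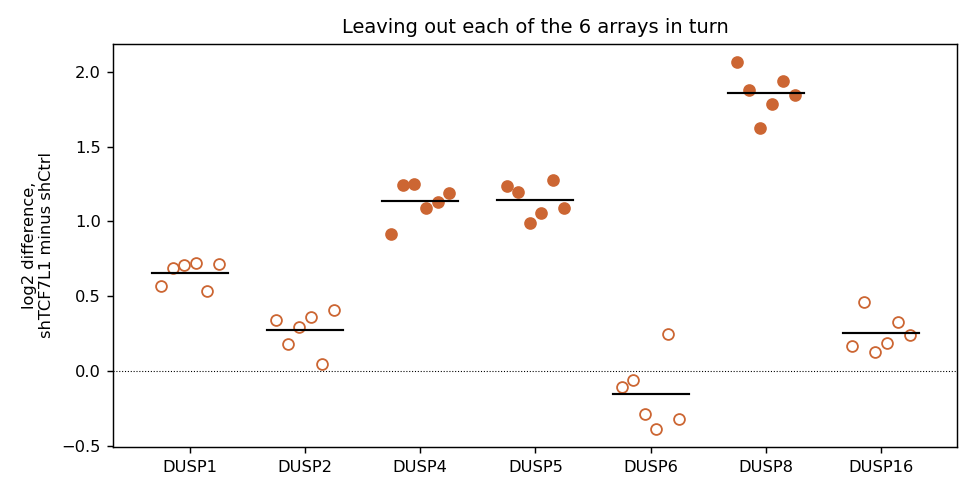
Log2 difference (shTCF7L1 minus shCtrl) of each tested MAP kinase phosphatase gene with all 6 arrays (black line) and with each array left out in turn (points, in the order shCtrl 1 to 3, shTCF7L1 1 to 3). Filled points have an adjusted p below 0.05. DUSP4, DUSP5 and DUSP8 have 6 filled points each and DUSP1 has 0; the DUSP6 point above 0 is the fit without shTCF7L1 replicate 2.

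The genes whose log2 values over the 6 arrays were most like those of DUSP8, the called member of smallest p, were CEACAM1 (Pearson r = 0.996), MVP (0.995) and TIPARP (0.993). CEACAM1 is a cell adhesion molecule, MVP the major vault protein and TIPARP an ADP-ribosyltransferase. Their log2 differences were 0.77, 0.56 and 0.66 (limma adjusted p = 0.0150, 0.0593 and 0.0305), so MVP did not pass. CEACAM1 lost its call in 2 of 17 alternatives and TIPARP in 6 of 18, while MVP passed in 4 of 18. With 2 groups of arrays such r values mostly follow the group difference, and 211 of 10463 genes had r above 0.95.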

How the data were processed

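Expression was measured on Illumina BeadChip arrays in 6 HCT116 samples, grouped by the shRNA label. The deposited table gave an intensity (average bead signal, linear, per the file headers) and a detection p-value for each probe on each array, deposited by the authors without visible normalization. GenomeStudio 2011.1 made them, per the submitters' processing notes. The authors' series matrix holds background-subtracted intensity scaled to a common mean of 145.7, judged from the values, and served as an alternative (floored at 1 unit, log2).

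Intensities were background corrected with normexp (offset 16), then quantile normalized to log2 values by neqc (limma 3.58.1, R 4.3.3); the deposited values themselves are not on a log2 scale. Probes with detection p below 0.01 on at least 3 arrays were kept, 16835 of 47225. Probe genes came from the platform annotation, with symbols updated through Entrez identifiers (30071 of 30110 single-gene probes matched). A gene was represented by its brightest kept probe. Groups were compared with lmFit and eBayes (2-sided, no block), and other kept probes of a gene in a fit over all kept probes. Fold changes are shTCF7L1 over shCtrl. The number of arrays limits the precision. The fit was tested on simulated data. Alternatives changed the background, scaling, detection filter, probe choice, variance model, weights, replicate block and arrays.

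Members and lists were chosen with earlier results of these data known. Named genes are the 10 members, TCF7L1, up to 6 changed genes per list or the one of smallest p, and the 3 genes most like the called member of smallest p. No protein sequence was used.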

Additional observations from a re-analysis of the deposited data

How the results depend on the processing

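Counts of called MAP kinase phosphatases stayed at 4 in the alternatives with all arrays, except 3 with detection required on all arrays, where DUSP8 was not tested, and 3 without any one array, where DUSP1 did not pass. Adjusted p was 0.00151 to 0.0276 for DUSP4 and 0.00121 to 0.0309 for DUSP5 over 18 alternatives, and 2.38e-05 to 0.0133 for DUSP8 over 17. Leaving out arrays moved DUSP6 between -0.39 and 0.25, and the sign turned without shTCF7L1 replicate 2. The median over the 7 tested members was 0.66, and over all 10 members without a detection filter 0.29. The median of the ERK output list was 0.085 with every probe on its own. Called genes numbered 1566 (52.5% of them higher), 1039 with the authors' processed values (68.3% higher), where the median of all genes was 0.13, and 1010 to 1152 without single arrays, lowest without any one control array or shTCF7L1 replicate 2. TCF7L1 gave -2.66 (adjusted p = 0.0270) with the authors' processed values and -0.63 to -0.44 without single arrays. Called MAP kinases were 1 to 2 and other phosphatases 0 to 1 without single arrays. Median scaling, the authors' processed values, detection on all arrays, the looser filter and the mean of probes each gave 1 called other phosphatase, DUSP18. The causes were not tested. Same-numbered arrays did not deviate together (r = -0.0113 to -0.00576, and 0 of 6 arrays correlated best with their own number), and with the replicate block 1451 genes and 4 members were called; ERK output genes were 5 in place of 6. Probes of DUSP7, DUSP9, DUSP10 and the dim DUSP4 probe were limited by signal over background.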
